A study of Homo sapiens with 6 samples.

Results

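The genes of DNA replication and S phase were followed in luciferases-expressing HepG2 cells exposed to sedanolide. HepG2 is a human hepatoblastoma line, and the cells used here carry an SLR3 luciferase reporter under antioxidant response elements and an ELuc reporter as internal control. The 49 members were taken from a list of symbols, and all 49 were matched to an Ensembl identifier in the table of 61543 counted features. All 49 passed the filter on low counts, which left 14104 features, and 48 were also present in a second table of 11006 features given per transcript length. The comparison was between 3 libraries of cells exposed to 100 μM sedanolide for 24 h and 3 libraries of control cells, in the same line and with both reporters in each group. Sedanolide was kept as a stock in dimethyl sulfoxide, and what the control wells received is not given in the sources used here. The study asked how sedanolide changes the transcriptome of these cells.

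Replication starts at origins that were licensed beforehand. ORC, CDC6 and CDT1 load the ring-shaped MCM2 to MCM7 helicase onto DNA, and geminin, the product of GMNN, holds CDT1 back once S phase has begun. CDC45 and the GINS complex then turn the helicase on, primase and the polymerases copy the strands behind the PCNA clamp, and ribonucleotide reductase, thymidylate synthase and their partners supply the nucleotides. Cyclin E with CDK2 drives the entry into S phase, and E2F1 is a transcription factor known for its action on many of these genes in dividing cells.

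The promoters are shown because E2F factors are known to bind many of them. Whether the letters bear on the differences after sedanolide was not tested. RefSeq promoter windows (GRCh38.p14, 250 bases before to 50 after each annotated start) were at hand for 41 members. The entries of MCM4, MCM5, GINS4, RPA2, RPA3, POLD3, CDK2 and CCNE2 were missing. The E2F letters searched on both strands were TTTCCCGC, TTTCGCGC, TTTGCCGC and TTTGGCGC, and in the windows of 21 of the 41 members (51.2%) at least 1 of them was found, against 3.99% of 27305 genes with a window. Matches on the 2 strands can overlap, as they do in MCM6. The CCAAT letters were in 58.5% of the members and in 39.7% of all genes. The core TGACNNNGC, which is part of the element that NRF2 is known to bind, was in 24.4% of the members and in 16.1% of all genes. Here all genes means every gene with a window, whether or not it passed the filter on low counts, which all members did. A gene with several annotated starts was counted once if any of its windows held the letters.

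The 160 bases before the start are given for 4 members on the strand of the gene, with the E2F letters in capitals. MCM6 holds an overlapping pair of matches at each of 2 places, E2F1 is the factor's own gene, UHRF1 had the widest spread between libraries, and CCNE1 had the smallest p-value of the members and holds no match in this window. They lie at chr2:135876444-135876603 (minus strand), chr20:33686386-33686545 (minus strand), chr19:4909341-4909500 (plus strand) and chr19:29811831-29811990 (plus strand).
MCM6: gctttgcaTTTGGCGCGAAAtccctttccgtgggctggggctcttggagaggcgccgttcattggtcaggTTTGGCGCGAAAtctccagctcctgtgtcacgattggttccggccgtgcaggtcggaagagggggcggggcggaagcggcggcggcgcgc
E2F1: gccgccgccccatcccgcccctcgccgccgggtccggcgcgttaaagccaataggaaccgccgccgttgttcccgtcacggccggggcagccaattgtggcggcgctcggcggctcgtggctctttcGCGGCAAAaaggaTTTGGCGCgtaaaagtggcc
UHRF1: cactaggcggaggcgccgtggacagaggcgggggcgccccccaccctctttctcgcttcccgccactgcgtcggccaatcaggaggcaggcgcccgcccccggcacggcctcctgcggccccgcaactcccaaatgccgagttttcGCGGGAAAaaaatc
CCNE1: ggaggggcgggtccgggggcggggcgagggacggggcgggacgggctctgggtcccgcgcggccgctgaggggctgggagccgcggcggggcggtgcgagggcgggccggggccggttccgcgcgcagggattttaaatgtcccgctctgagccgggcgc

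Members with and without E2F letters had close medians of fold change. The median log2 fold change of sedanolide over control was 0.27 in the 21 members with the letters, and 0.31 in the 20 members whose windows held none. In the first set 19 members were higher and 2 lower, and in the second 16 were higher and 4 lower. These are descriptions of the chosen windows and letters and were not tested. The absence of these exact letters does not show that E2F factors do not bind a gene.

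Total expected counts were between 16420258 and 26714853 per library. The libraries split along principal component 1 (56.1% of the variance of log2 CPM) in a way that did not follow the treatment, since control 1 and control 2 lay with sedanolide 3, whereas control 3 lay with sedanolide 1 and sedanolide 2. The share of mitochondrial transcripts was 1.43% to 2.15% in the former side and 4.23% to 5.22% in the latter. The labels name no batch, and nothing in them says that the replicates came from separate cultures, so the p-values measure the spread between these libraries, which may be technical. Because each side holds both conditions, treatment differences are also given within each side. As for the identity of the cells, all 9 hepatocyte markers examined passed the filter, their summed level being 30126.8 to 47262.0 CPM in control and 21578.0 to 39122.2 CPM in sedanolide libraries, and TTR, a plasma carrier of thyroid hormone, had the smallest p among them (log2 fold change -0.53, FDR-adjusted p = 0.133, edgeR). Of 16 markers of fibroblasts, blood cells and endothelium, 7 were at 0 counts in all libraries, namely CD3E, HBB, VWF, KDR, COL1A2, DCN and LUM. Among those past the filter, LYZ reached 810.5 to 1357.7 CPM in control and 456.2 to 760.3 CPM in sedanolide libraries (log2 fold change -0.85, FDR-adjusted p = 0.231). PDGFRB was at -1.42 (FDR-adjusted p = 0.155) and PECAM1 at 0.068 (FDR-adjusted p = 0.915). Of the hepatocyte markers 8 of 9 were lower in sedanolide libraries, 3 of them at an unadjusted p-value under 0.05, and the part of these cell markers in the differences given next was not tested.

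No member passed both thresholds, which were a false discovery rate (FDR) of 0.05 and a 1.5-fold change, but most of them lay slightly higher after sedanolide. The members were measured in the same libraries and are not independent of each other, so counts of members are descriptions. Of the 49 members, 42 had a log2 fold change above 0, against 50.7% of all genes tested, and their median was 0.29 (22.1% higher), against 0.0057 over all genes. With edgeR's quasi-likelihood test 11 members lay higher and 0 lower at an unadjusted p-value under 0.05, where 5.35% of all genes were higher and 6.57% were lower. Over all genes, 0.362% were called higher and 0.312% lower at both thresholds, and at the FDR alone 0.674% in either direction, where 0 members passed. The smallest adjusted p among the members was 0.147. Only ORC1 and POLE2 were at least 1.5-fold higher, as were 3.05% of all genes. DESeq2 gave 13 members higher and 0 lower at an unadjusted p-value under 0.05 (6.17% and 6.24% of all genes), and limma-voom gave 12 and 0 (760 and 970 of all 14104 genes). Neither tool called a member at both thresholds, where DESeq2 called 0.922% of all genes higher and 1.4% lower. At the FDR alone DESeq2 passed 1 member, CCNE1, and 3.07% of all genes. The largest log2 fold changes of members were 0.61 and 0.60, and in 44 of the 49 the upper end of the 95% interval lay below a log2 fold change of 1, as in 12634 of the 14104 genes tested. In bulk RNA a larger share of cells in S phase and more of these transcripts per cell cannot be told apart.

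The difference was not clean between the libraries. Taking each member's log2 level relative to the mean of its controls, the median over the 49 members was -0.021, -0.097 and 0.14 in control 1 to 3 and 0.33, 0.29 and 0.095 in sedanolide 1 to 3. Sedanolide 3 thus lay below control 3, so the groups overlapped in this summary, and the highest libraries were the sedanolide libraries on the side with more mitochondrial RNA. Within the side of control 1, control 2 and sedanolide 3, the median log2 fold change of the members was 0.17, and within the other side it was also 0.17. Each within-side value rests on a single library of a condition, sedanolide 3 in the former and control 3 in the latter. In 38 members sedanolide was higher within both sides and in 6 it was lower within both, against 36.6% and 33.8% of all genes. Individually, 14 members had all 3 sedanolide libraries above all 3 controls (8.69% of all genes), and 0 had them all below (9.66% of all genes).

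**Figure D1:**
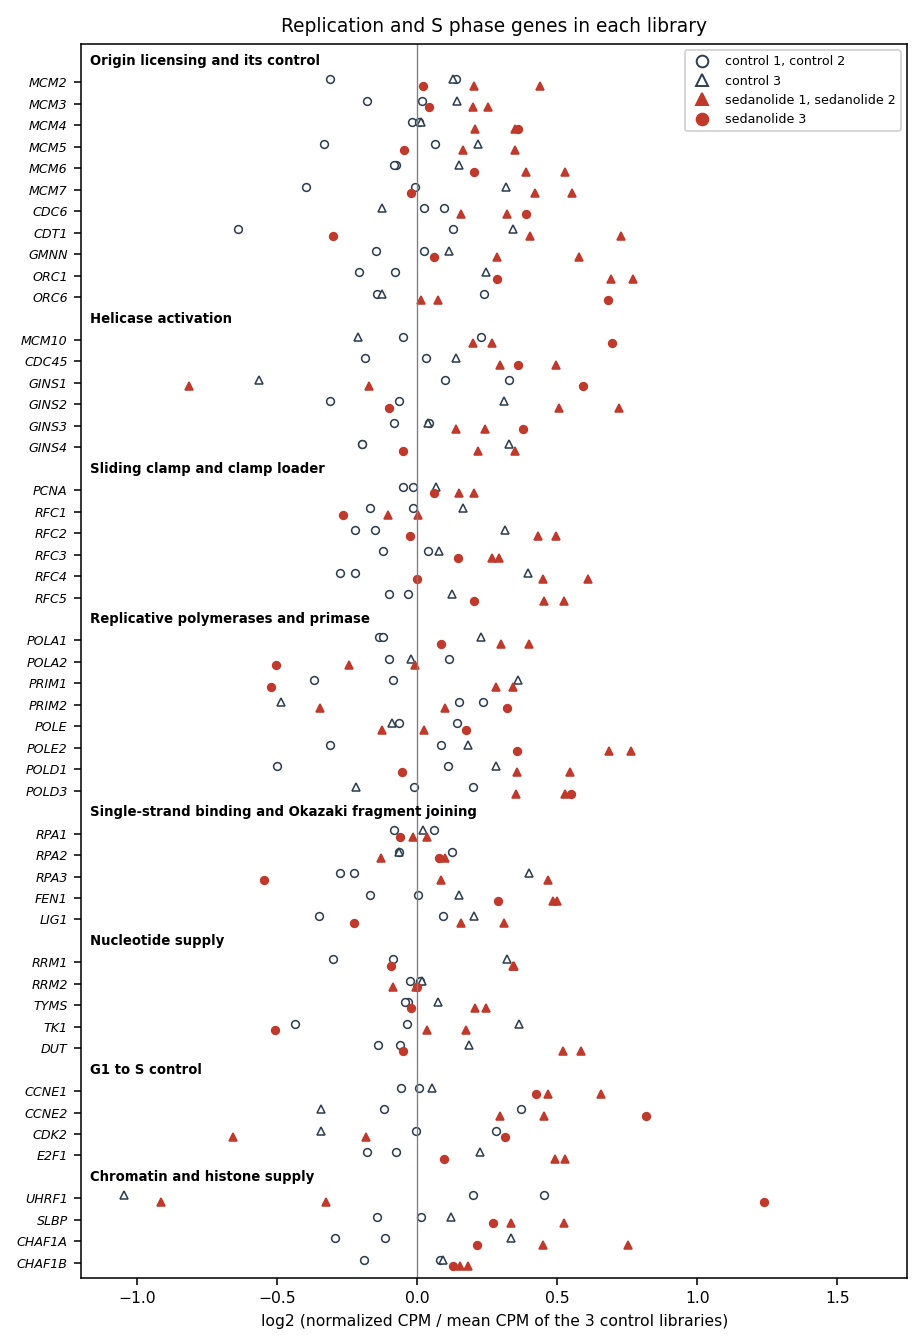
Level of each of the 49 members in the 6 libraries, as the log2 ratio of normalized CPM to the mean of the 3 control libraries (x axis), by role (y axis). Open symbols are control and filled symbols sedanolide libraries, circles the side of component 1 with control 1, control 2 and sedanolide 3, and triangles the other side. CCNE1, ORC1 and FEN1 show all filled symbols to the right of the open ones, and UHRF1 spans the widest range, with sedanolide 3 farthest right.

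Among the genes of origin licensing and its control, all 11 were higher after sedanolide, 4 of them at an unadjusted p-value under 0.05 and 0 at the FDR threshold. For the counts by role given here and below, the shares of all genes are 50.7% higher and, at that p-value, 5.35% higher. ORC1, the largest subunit of the origin recognition complex (ENSG00000085840, chromosome 1 of GRCh38, 52372829 to 52404423), had 30.4, 27.8 and 38.1 CPM in control 1 to 3 and 54.7, 51.9 and 39.1 CPM in sedanolide 1 to 3. All sedanolide libraries were above the controls, but sedanolide 3 exceeded control 3 by little. The means were 32.1 ± 5.36 and 48.6 ± 8.35 CPM (SD, n = 3), or 0.60 higher on the log2 scale (SE of the log2 fold change 0.181, FDR-adjusted p = 0.260, edgeR). Within the sides of component 1 it was 0.42 and 0.48. The helicase subunits MCM2 to MCM7 had log2 fold changes from 0.16 (MCM5) to 0.38 (MCM6), and only MCM4 and MCM6 were at an unadjusted p-value under 0.05 among them. MCM4 had the tightest control values of the helicase genes, 164.5, 167.5 and 168.6 CPM, and 192.7, 212.8 and 214.2 CPM in sedanolide 1 to 3. Its groups did not overlap, and its log2 fold change was 0.31 (SE 0.107, FDR-adjusted p = 0.317). MCM2 and MCM7 overlapped between groups, with log2 fold changes of 0.23 (FDR-adjusted p = 0.646) and 0.34 (FDR-adjusted p = 0.604). When a library was left out, MCM2 lay between 0.096 (without control 2) and 0.33 (without sedanolide 3), and MCM7 between 0.17 (without control 2) and 0.53 (without control 3).

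CDC6, the loader of the helicase, had 60.0, 63.1 and 54.1 CPM in control 1 to 3 and 65.8, 73.8 and 77.3 CPM in sedanolide 1 to 3, without overlap (log2 fold change 0.29, SE 0.121, FDR-adjusted p = 0.401). For its partner CDT1 the spread was far wider. CDT1 (chromosome 16, 88803789 to 88809258) had 118.3, 69.5 and 137.4 CPM in control and 179.3, 143.2 and 87.9 CPM in sedanolide libraries. Its levels followed the sides of component 1 more than the treatment, with the lowest values in control 2 and sedanolide 3. The log2 fold change of 0.34 (95% interval -0.43 to 1.10, FDR-adjusted p = 0.720) became -0.044 and 0.22 within the sides. GMNN, the inhibitor of CDT1, was between 56.9 and 68.3 CPM in control and between 65.8 and 94.2 CPM in sedanolide libraries, with the log2 fold change at 0.32 (FDR-adjusted p = 0.483).

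In the genes of helicase activation, 5 of 6 were higher and 1, CDC45, was at an unadjusted p-value under 0.05. CDC45, which joins the MCM ring to form the active helicase (chromosome 22, 19479457 to 19520612), had 18.4, 15.8 and 19.8 CPM in control 1 to 3 and 25.4, 22.1 and 23.1 CPM in sedanolide 1 to 3. The groups were separate, with a log2 fold change of 0.39 (SE 0.134, FDR-adjusted p = 0.317) and 0.43 and 0.26 within the sides. Among the GINS subunits the values diverged. GINS2 had the largest log2 fold change in this role, 0.42, with overlapping groups (FDR-adjusted p = 0.562), and 0.090 and 0.30 within the sides. GINS1 had 21.1, 24.7 and 13.3 CPM in control and 11.2, 17.5 and 29.7 CPM in sedanolide libraries. Its means of 19.7 ± 5.82 and 19.5 ± 9.44 CPM (SD, n = 3) were close while single libraries differed widely. The log2 fold change of GINS1 was -0.018, and 0.38 and 0.067 within the sides. GINS1 shares 259 exon bases with NINL on the opposite strand, whose summed counts were 128.4% of its own. MCM10, a scaffold of the starting fork, was between 13.7 and 18.6 CPM in control and between 18.2 and 25.7 CPM in sedanolide libraries (log2 fold change 0.40, FDR-adjusted p = 0.456).

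Of the sliding clamp and its loader 5 of 6 genes were higher, and the median of the 6 log2 fold changes was 0.28. PCNA, the clamp that keeps polymerases on DNA (chromosome 20, 5114953 to 5126626), had 152.1, 148.4 and 161.2 CPM in control 1 to 3 and 176.9, 170.7 and 160.4 CPM in sedanolide 1 to 3. Sedanolide 3 lay within the control range, and the log2 fold change was 0.14 (95% interval -0.12 to 0.39, FDR-adjusted p = 0.660). Of the loader subunits RFC1 to RFC5, 4 were higher and RFC1 was lower, at -0.12 (FDR-adjusted p = 0.765). RFC5 (chromosome 12, 118013588 to 118033130) had the smallest p in this role, with 21.5, 20.5 and 24.0 CPM in control and 31.6, 30.1 and 25.3 CPM in sedanolide libraries. These did not overlap, and the log2 fold change was 0.40 (SE 0.135, FDR-adjusted p = 0.306). RFC5 shares 186 exon bases with WSB2 on the opposite strand, and whether the counting used strand is not given in the sources used here. PCNA, RRM2 and DUT have processed pseudogenes, and reads that match both are divided between them by RSEM.

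Of the replicative polymerases and primase, 7 of 8 were higher, 2 of them at an unadjusted p-value under 0.05, and both of these encode accessory subunits. POLE2, a subunit of the leading strand polymerase (chromosome 14, 49643555 to 49688422), had the largest log2 fold change of all members, on counts of 61 to 191 per library. It had 3.70, 4.87 and 5.2 CPM in control 1 to 3 and 7.80, 7.38 and 5.87 CPM in sedanolide 1 to 3. The groups were separate, and the log2 fold change of 0.61 had a 95% interval of 0.16 to 1.06 (FDR-adjusted p = 0.278, edgeR). Within the sides it was 0.46 and 0.54. POLD3, of the lagging strand polymerase, had 10.1, 11.7 and 8.76 CPM in control and 13.0, 14.7 and 14.9 CPM in sedanolide libraries (log2 fold change 0.48, SE 0.151, FDR-adjusted p = 0.278). The catalytic subunits were nearer to their controls, POLE at a log2 fold change of 0.030, POLA1 at 0.27 and POLD1 at 0.30, each with overlapping groups. POLA2 was the lowest of all members at -0.24 (FDR-adjusted p = 0.620), but it shares 2012 exon bases with another annotated gene on its strand, and in the table given per length its log2 difference was 0.062. PRIM1 shares 139 exon bases with the far more abundant NACA on the same strand. POLD3 shares 123 exon bases with LIPT2-AS1 on the same strand, whose summed counts were 36.4% of those of POLD3.

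Of the genes of single-strand binding and Okazaki fragment joining 4 of 5 were higher, with FEN1 at an unadjusted p-value under 0.05, but without control 2 only 1 was higher, and without sedanolide 1 or with the side as a term 2 were. RPA1, RPA2 and RPA3, the subunits of replication protein A, had log2 fold changes of -0.014, 0.022 and 0.059. For RPA1 the 95% interval was -0.26 to 0.23, whereas for RPA3 it was -0.63 to 0.75. FEN1, the nuclease that trims Okazaki fragments (ENSG00000168496, chromosome 11, 61792911 to 61797238), had 39.0, 43.9 and 48.6 CPM in control 1 to 3 and 61.3, 62.0 and 53.5 CPM in sedanolide 1 to 3. All sedanolide libraries were above all controls, with means of 43.8 ± 4.80 and 58.9 ± 4.75 CPM (SD, n = 3). The log2 fold change was 0.43 (SE 0.130, FDR-adjusted p = 0.259, edgeR), and 0.37 and 0.34 within the sides. FEN1 shares 49 exon bases with FADS2 on the same strand. LIG1, the ligase that seals the fragments, overlapped between the groups at 0.097.

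The genes of nucleotide supply were mixed, with 3 of 5 higher and 0 at an unadjusted p-value under 0.05 in either direction. RRM2, the regulated subunit of ribonucleotide reductase, had 139.4, 136.0 and 140.1 CPM in control 1 to 3 and 130.5, 138.1 and 138.4 CPM in sedanolide 1 to 3. This was among the most even of all members, with a log2 fold change of -0.030 and a 95% interval of -0.27 to 0.21. TYMS, thymidylate synthase, was between 132.4 and 143.7 CPM in control and between 134.4 and 161.6 CPM in sedanolide libraries (log2 fold change 0.15, FDR-adjusted p = 0.671), and it shares 967 exon bases with ENOSF1 on the opposite strand. DUT, which removes dUTP, was the highest of this role at 0.38 (FDR-adjusted p = 0.494), but it was at 0.051 within the side of control 1, control 2 and sedanolide 3. TK1, thymidine kinase, was at -0.070 in all libraries and at -0.27 and -0.26 within the sides.

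In the control of the step from G1 to S, cyclin E1 had the smallest p-value of all members. CCNE1 (ENSG00000105173, chromosome 19, 29811991 to 29824312) had 20.7, 19.8 and 21.4 CPM in control 1 to 3 and 32.5, 28.5 and 27.7 CPM in sedanolide 1 to 3. The groups were well separated, the lowest sedanolide library being above the highest control by more than the range within the controls. The means were 20.6 ± 0.796 and 29.5 ± 2.56 CPM (SD, n = 3), and the log2 fold change was 0.52 (43.3% higher, SE 0.118). In edgeR this gave an unadjusted p of 0.00298 and, after Benjamini-Hochberg adjustment, an adjusted p of 0.147, so it did not pass. With DESeq2 its adjusted p was 0.00701, below the FDR threshold but with a fold change under 1.5. Within the sides its log2 fold change was 0.45 and 0.51. Its paralog CCNE2 was expressed far lower, at 11 to 35 counts per library, with a log2 fold change of 0.52 on overlapping groups (95% interval -0.17 to 1.22, FDR-adjusted p = 0.537). It shares 1629 exon bases with INTS8 on the opposite strand, whose summed counts were 4496.4% of its own. CDK2, the kinase bound by both cyclins, was at -0.12 (FDR-adjusted p = 0.884). E2F1 had 17.4, 16.2 and 21.4 CPM in control and 26.4, 25.8 and 19.6 CPM in sedanolide libraries (log2 fold change 0.39, FDR-adjusted p = 0.436), with sedanolide 3 inside the control range.

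The 4 genes of chromatin and histone supply were all higher, 1 of them at an unadjusted p-value under 0.05. SLBP, which binds the stem-loop of histone mRNAs (chromosome 4, 1692731 to 1712344), had 43.4, 38.9 and 46.7 CPM in control 1 to 3 and 61.9, 54.2 and 51.9 CPM in sedanolide 1 to 3. There was no overlap, and the log2 fold change was 0.38 (SE 0.127, FDR-adjusted p = 0.297). CHAF1A, the large subunit of the histone chaperone CAF-1, had 34.6, 30.5 and 47.2 CPM in control and 63.1, 51.1 and 43.4 CPM in sedanolide libraries (log2 fold change 0.49, FDR-adjusted p = 0.421), and sedanolide 3 fell inside the control range. UHRF1, which guides maintenance DNA methylation behind the fork (chromosome 19, 4903080 to 4962154), had 57.1, 68.1 and 24.1 CPM in control and 26.4, 39.7 and 117.4 CPM in sedanolide libraries. The 3 libraries of the side with more mitochondrial RNA were thus the lowest, whichever their treatment, and its log2 fold change of 0.30 had a 95% interval of -1.11 to 1.71 (FDR-adjusted p = 0.875).

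**Figure D2:**
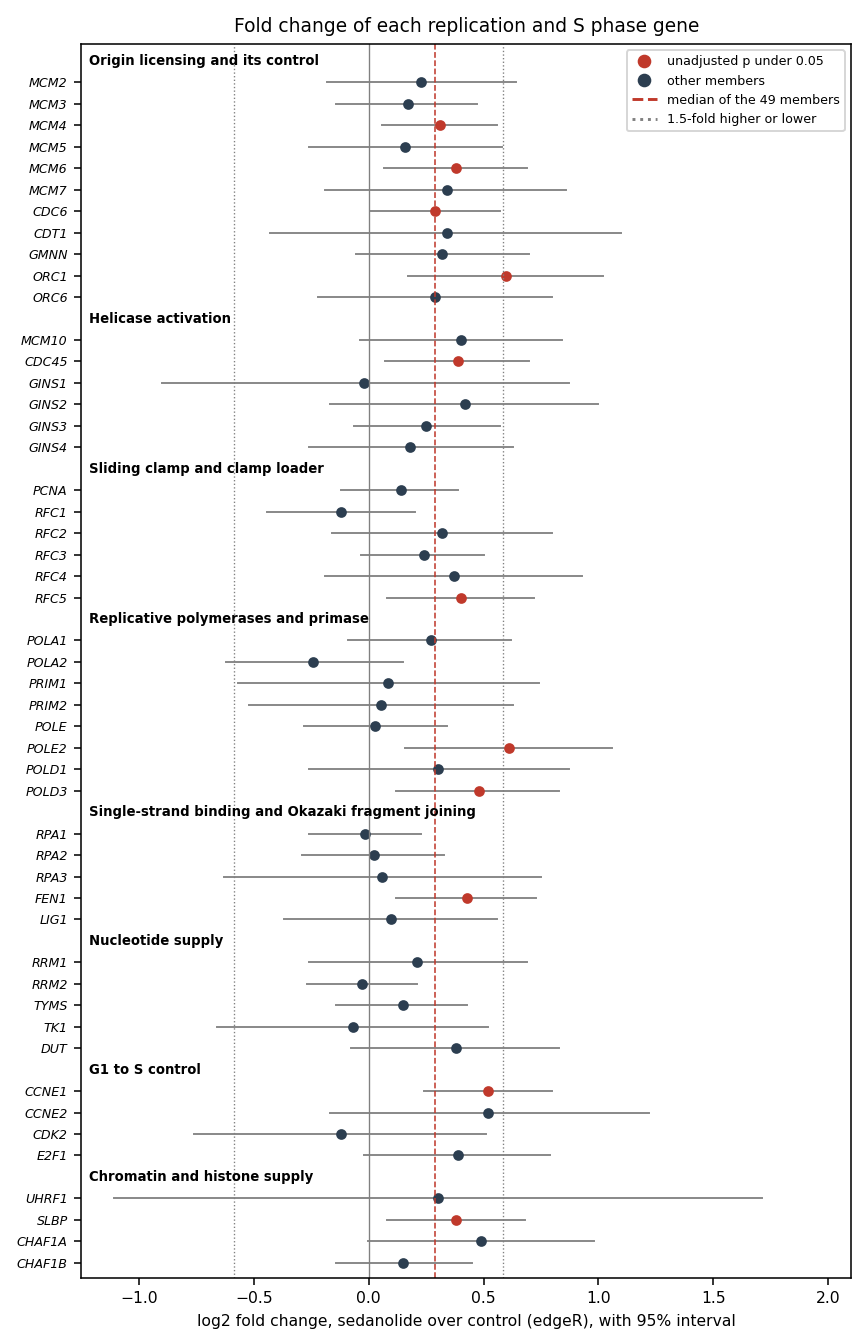
Log2 fold change of sedanolide over control for each of the 49 members, by role, with 95% intervals from edgeR (3 libraries per group). Red points are the 11 members at an unadjusted p-value under 0.05, the dashed line is the median of the members (0.29) and the dotted lines mark 1.5-fold. Most points lie right of 0, and only those of ORC1 and POLE2 lie beyond 1.5-fold.

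Levels of different members were compared per transcript length, as TPM recovered from the log2(TPM + 1) table. PCNA was the highest, at 204.0 ± 7.89 TPM in control and 207.5 ± 7.30 TPM in sedanolide libraries (SD, n = 3). MCM3 followed at 176.3 ± 6.12 and 182.7 ± 1.93 TPM, and then MCM5, TYMS and MCM7 lay within each other's spread. The helicase subunits, which assemble in equal number, differed in level, and MCM6 was the lowest of them at 16.5 ± 1.89 TPM over all libraries, under MCM2 at 73.1 ± 8.54 TPM (SD, n = 6). Among the initiation factors, CDT1 (67.0 ± 17.6 TPM in control) and GMNN (93.6 ± 10.6 TPM) were higher than CDC6 (34.6 ± 5.88 TPM), ORC1 (15.5 ± 1.58 TPM) and CDC45 (16.5 ± 1.20 TPM). At the low end lay POLD3, GINS3, POLE2, MCM10 and CHAF1B, each between 5.32 and 6.79 TPM in control libraries, and their neighbors in this order did not differ beyond their spread. CCNE2 was not among the genes of this table. On this scale the median log2 difference of the 48 members was 0.12, while that of all genes in the table was -0.074, and 38 members were higher. By limma 0 of the 48 members passed the thresholds and 6 were higher and 0 lower with an unadjusted p below 0.05, against 3.27% and 8.28% of all genes.

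**Figure D3:**
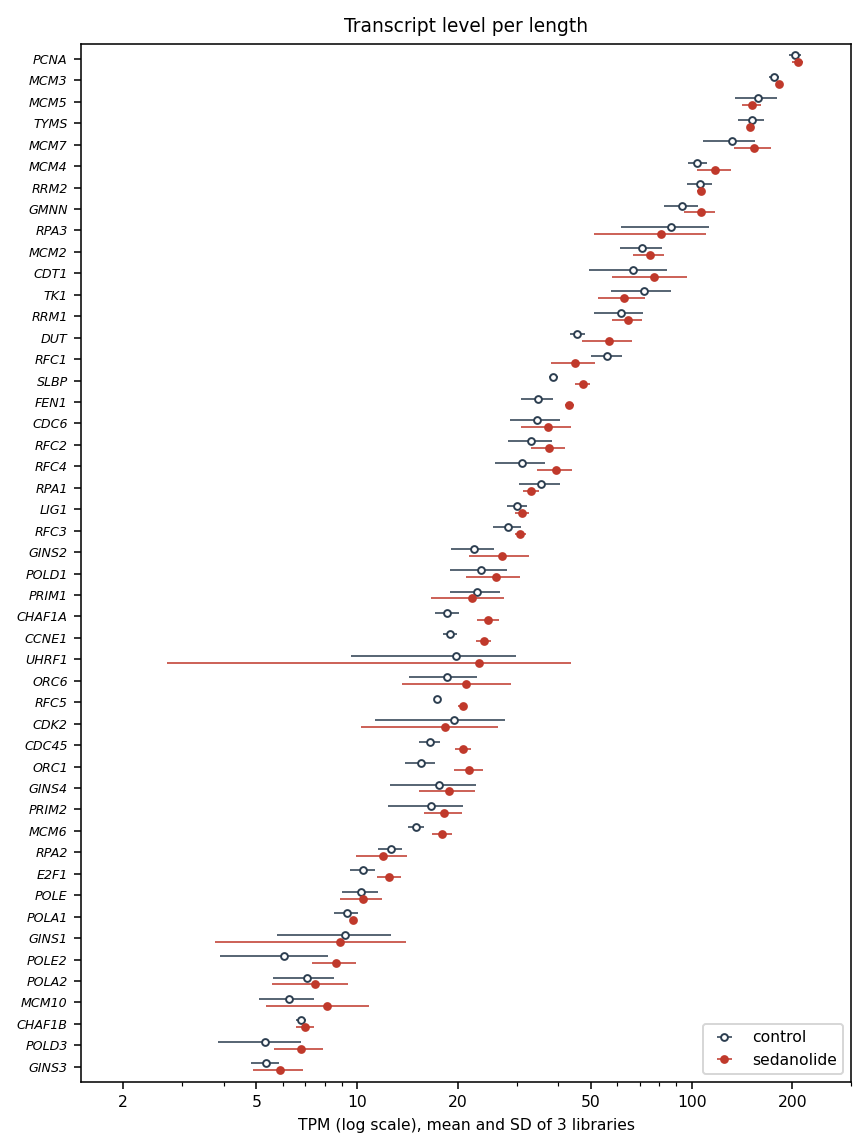
Level of 48 members in TPM (x axis, log scale), ordered by their mean over all libraries (y axis). Open points are the mean of 3 control libraries and filled points that of 3 sedanolide libraries, with bars of 1 SD. PCNA, MCM3 and MCM5 are at the top, GINS3 is at the bottom, and the bars of UHRF1 are the widest for its level.

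The split between the libraries went with differences of both signs among the members, though more of them were higher on the side with more mitochondrial RNA. In a fit that included the side as a term, the levels in control 3, sedanolide 1 and sedanolide 2 were compared with those in control 1, control 2 and sedanolide 3 after allowing for treatment. In 35 of the 49 members the level was higher in control 3, sedanolide 1 and sedanolide 2, as in 7363 of the 14104 genes tested. The median log2 difference was 0.22, against 0.023 over all genes. The difference reached 1.5-fold in either direction in 9 of the 49 members, against 18.9% of all genes. These 9, picked out after their values were seen, were UHRF1 (log2 difference -1.61), GINS1 (-0.92) and CDK2 (-0.60), which were lower on the side with more mitochondrial RNA, and RPA3 (0.74), CDT1 (0.71), PRIM1 (0.71), GINS2 (0.61), TK1 (0.60) and RFC4 (0.59), which were higher there. The sides were drawn from all genes of these same libraries, the members included, so the differences are descriptions. The p-values for treatment in this fit take the sides as known beforehand, which they were not, and are descriptions too. How the split arose was not tested. With this term, the median log2 fold change by treatment was 0.19 and 41 members were higher. With an unadjusted p below 0.05, 17 were higher and 0 lower, against 9.44% and 10.1% of all genes. Past the FDR threshold alone were ORC1 (log2 fold change 0.46, FDR-adjusted p = 0.0316), CCNE1 (0.48, FDR-adjusted p = 0.0388), MCM10 (0.52, FDR-adjusted p = 0.0461) and POLD3 (0.55, FDR-adjusted p = 0.0496), where 4.11% of all genes passed, and none of these 4 reached a fold change of 1.5. At both thresholds 1.07% of all genes were called higher and 1.63% lower. UHRF1 came to 0.70 with this term (FDR-adjusted p = 0.0550).

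**Figure D4:**
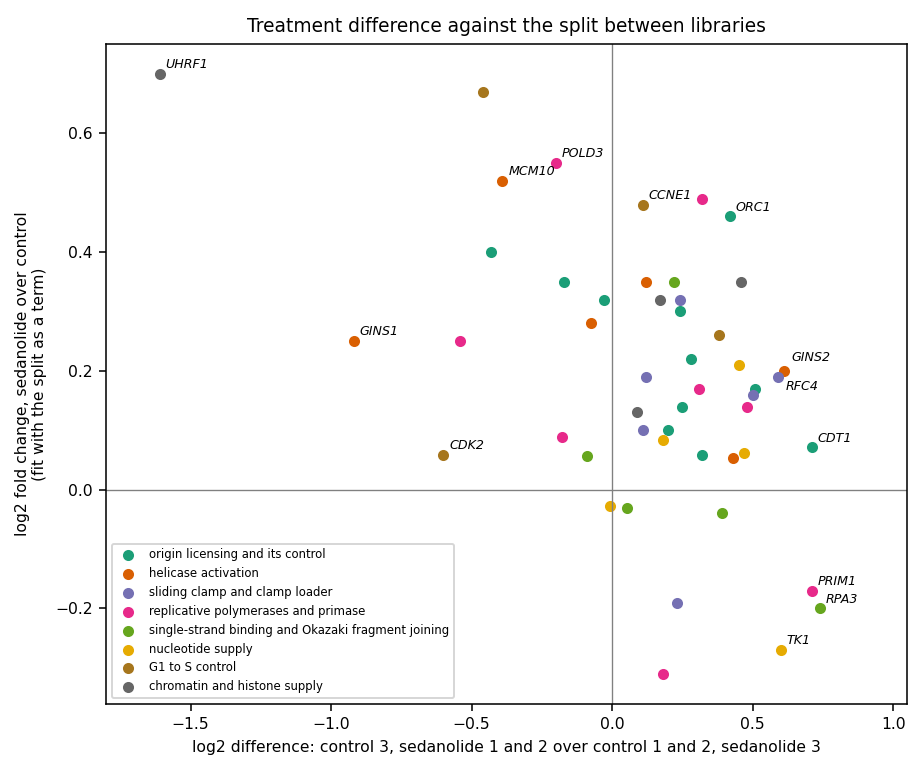
Log2 difference between the sides of component 1 (x axis, control 3, sedanolide 1 and sedanolide 2 over control 1, control 2 and sedanolide 3) and log2 fold change by treatment (y axis) of each of the 49 members, both from the edgeR fit with the side as a term. Colors mark the roles, and names are given where the sides differed by 1.5-fold or the adjusted p for treatment was under 0.05. UHRF1 lies alone at the far left (-1.61), and 41 of the points lie above 0 on the y axis.

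Genes that work beside the members were taken from further lists. Of 45 other replication genes, 37 were higher and 8 lower, with a median log2 fold change of 0.25. At an unadjusted p-value under 0.05, 8 lay higher and 1 lower, and 0 passed both thresholds. The smallest p among them was that of ASF1A, a chaperone that hands histones to CAF-1, at 69.8 ± 13.8 CPM in control and 138.1 ± 35.0 CPM in sedanolide libraries (SD, n = 3), a log2 fold change of 0.98 (SE 0.230, FDR-adjusted p = 0.159, edgeR). With the side as a term its adjusted p was 0.00376. Of 30 regulators of the step from G1 to S, 28 were tested, 17 of which were higher, with a median of 0.099. This median became 0.015 without sedanolide 3, 0.048 without control 3, 0.064 without control 1 and 0.14 without control 2. From 14 (without sedanolide 3) to 23 (without sedanolide 1) were higher when a library was left out. With all libraries, 4 of these regulators were higher and 0 lower with an unadjusted p below 0.05. The smallest p was that of CDC25A, the phosphatase that activates CDK2, at a log2 fold change of 0.37 (FDR-adjusted p = 0.315). Of 18 genes of the replication checkpoint and fork repair, 14 were higher (median 0.16), with 2 higher and 0 lower at an unadjusted p-value under 0.05. EXO1, a nuclease of mismatch repair, had the smallest p among these (log2 fold change 0.55, FDR-adjusted p = 0.283).

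Mitosis and G2/M genes, expressed later in the cycle, served as the nearest comparison. Of 30 such genes, 18 were higher and 12 lower, where 50.7% of all genes were higher. Their median log2 fold change was 0.057, against 0.29 for the replication members. It lay between 0.0002 (without sedanolide 1) and 0.15 (without control 3, and also without sedanolide 3) when a library was left out, and without control 3 24 of the 30 were higher, the median of the replication members then being 0.31. It was 0.026 without control 1, 0.012 without control 2 and 0.023 without sedanolide 2. At an unadjusted p-value under 0.05, 0 were higher and 0 lower with edgeR, with DESeq2 and with limma-voom, and 0 passed the thresholds. MAD2L1, of the spindle checkpoint, had the smallest p at a log2 fold change of 0.30 (FDR-adjusted p = 0.436). Once the side was included in the fit, the median of the mitotic genes was -0.027 and in the table given per length it was -0.062, where the median of all genes was -0.074, while that of the replication members was 0.19 and 0.12. The difference between the lists was not tested. TOP2A, at a log2 fold change of -0.061, was counted both among the mitotic genes and among the other replication genes.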

How the data were processed

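The authors deposited RSEM expected counts, which are not normalized, and a table of log2 values, log2(TPM + 1), of part of the genes. Polyadenylated RNA was captured and directional libraries were sequenced as paired-end reads. Per the methods and the submitters' processing notes, reads were checked with FastQC, trimmed with Trimmomatic, aligned to GRCh38 with STAR and counted with RSEM. Versions, annotation and strand setting are not given in the sources used here. That 1 had been added was taken from the sums, as the recovered TPM came to between 988500 and 994764 per library.

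Expected counts were rounded, filtered with filterByExpr, normalized by TMM and tested with the robust quasi-likelihood test of edgeR 4.0.16 in R 4.3.3, with treatment as the only term. CPM are on the TMM scale, except for the markers of cell identity, which are CPM on raw totals. A gene was called at a Benjamini-Hochberg FDR of 0.05, adjusted over all 14104 features, and a fold change of 1.5. The procedure was run on simulated counts with a common dispersion, no split between libraries and planted fold changes larger than those of the members. Such a run does not bear on differences as small as those given here. The study's tool, DESeq2 (version 1.42.0), limma-voom and limma on the log2 table (version 3.58.1) were alternatives, besides other scaling, filtering, blocking, the side of component 1 and leaving out each library. Intervals use the standard error implied by the F statistic. Positions are from GENCODE 44.

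The members and lists were chosen with earlier results of these data known. Named were, in each role, the member with the smallest p and that with the largest absolute fold change, all members past the thresholds, 15 members whatever their values (PCNA, MCM2, MCM7, CDT1, GMNN, CDC6, RRM2, TYMS, CCNE1, CCNE2, E2F1, CDC45, POLE2, FEN1 and CHAF1A), and the gene with the smallest p of every other list. The remaining members named were added after their values were seen.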

Additional observations from a re-analysis of the deposited data

How the results depend on the processing

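No member was called, in either direction, under any alternative run on the counts, including DESeq2, limma-voom, other scaling, only a minimum of 1 count as filter, no fold change threshold, the replicate block, the side term and each of the 6 fits without a library, and 0 members were called in the log2 TPM table with a pseudocount of 1 or 0.1. The members that were higher with an unadjusted p below 0.05 numbered 11, and this was 17 with the side term and 4 to 17 when a library was left out (4 without sedanolide 2, 6 without control 1 and 17 without sedanolide 3, where 342, 420 and 1522 of all genes were higher at that p). The median log2 fold change of the members was 0.19 with the side term and between 0.21 and 0.31 when a library was left out, and was 0.12 and 0.13 in the log2 TPM table with a pseudocount of 1 and 0.1, where all genes were shifted down as well, and that of the checkpoint list was 0.059 and 0.065 there. Within the sides, it was 0.17 and 0.17.

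The correlations of deviations between same-numbered libraries were -0.133, -0.295 and -0.73. The largest were 0.679 for control 2 with sedanolide 3 and 0.652 for control 3 with sedanolide 1, which lie on the same side of component 1. Such correlations follow the split, so whether the replicate numbers pair the libraries cannot be told from them. With the replicate block, 2 members were higher with an unadjusted p below 0.05, and of all genes 0 were called higher and 0 lower (283 and 489 at an unadjusted p-value under 0.05). Of all genes, 51 were called higher and 44 lower with edgeR as reported. These became 130 and 198 with DESeq2, 79 and 79 with all genes of at least 1 count, and 151 and 230 with the side term. The study itself reported fewer genes in each direction with DESeq2, at the same FDR and fold change. When a library was left out, from 0 to 66 genes were called higher and from 0 to 70 lower. Both counts were 0 without control 1 and without sedanolide 2. Among the other replication genes, 1 was called with DESeq2, with all genes of at least 1 count, with the side term and without sedanolide 3, against 0 as reported, and 0 to 1 over the fits without a library. RRM2 changed sign to 0.011 with either pseudocount and TYMS to -0.012 with either, where the median of all genes was -0.074 and -0.078. Over the fits without a library GINS2 ranged from 0.23 to 0.62, GMNN from 0.17 to 0.44, CDT1 from 0.091 to 0.57 and CHAF1A from 0.34 to 0.69. The causes of these changes were not tested. The members of lowest depth were CCNE2, with 11 to 35 counts per library, and POLE2, with 61 to 191.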
